A study of Mus musculus with 6 samples.

Results

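Atm, Atr, Chek1, Chek2, Brca1, Brca2, Trp63 and Xrcc6, 8 mouse genes of the DNA damage checkpoint and of DNA repair, were followed in fully-grown oocytes (FGOs) with and without Lsm14b. The genes were taken by symbol from the deposited expression table, which held all 8 of them among 24255 genes, and the rule used the symbols alone. The libraries were RNA-Seq libraries of oocytes at the germinal vesicle (GV) stage, the stage of prophase arrest, 3 from WT mice and 3 from Lsm14b-KO mice on a C57BL/6J background. The Lsm14b-KO mice were homozygous for a "knockout first" reporter-tagged insertion in Lsm14b, which encodes an RNA-binding protein, and the insertion is a germline allele, so every cell of the female carries it. In both groups the mice were primed with PMSG at 5 IU, a gonadotropin that drives follicle growth, the oocytes were collected 46 h later, and each library was made by Smart-seq2 from 20 oocytes. The ages of the mice and whether the 3 libraries of a group came from separate females are not given, so a p-value here measures the spread between libraries, which may be technical. The comparison asks how much of each mRNA the oocyte holds when Lsm14b is lost. A lower level from fewer mRNA molecules per oocyte and one from another composition of the RNA pool cannot be told apart in these relative values.

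ATM and ATR are the kinases at the top of the DNA damage response. ATM is switched on by double-strand breaks and acts through CHK2, whereas ATR is switched on by single-stranded DNA coated with RPA and acts through CHK1, and both branches restrain CDC25 phosphatases and CDK1 and so hold the cell before division. BRCA1 and BRCA2 carry repair by homologous recombination, and KU70, the product of Xrcc6, binds broken ends with KU80 for non-homologous end joining. In the oocyte, p63 (Trp63) is the p53-family factor that triggers death after DNA damage during the long prophase arrest, downstream of CHK2 and CHK1. Fully-grown oocytes are largely silent in transcription, and their mRNA pool is a store laid down during growth.

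The start-site sequences are shown for both checkpoint kinases, which serve the ATR and ATM branches, and for both BRCA genes, which serve homologous recombination. Chek1 and Chek2 stood at the opposite ends of the range of levels described below. The promoter sequences cover 250 bases before to 50 bases after the RefSeq start on GRCm38.p6, and 7 of the 8 genes were matched, all but Trp63. Capitals mark the heptamer GCGGGAA, the core of the binding sites of E2F factors, searched on both strands. The motif was chosen after these promoters had been read. The windows are chr9:36726609-36726908 on the minus strand for Chek1, chr5:110839733-110840032 on the plus strand for Chek2, chr11:101551906-101552205 on the minus strand for Brca1 and chr5:150522371-150522670 on the plus strand for Brca2.
Chek1: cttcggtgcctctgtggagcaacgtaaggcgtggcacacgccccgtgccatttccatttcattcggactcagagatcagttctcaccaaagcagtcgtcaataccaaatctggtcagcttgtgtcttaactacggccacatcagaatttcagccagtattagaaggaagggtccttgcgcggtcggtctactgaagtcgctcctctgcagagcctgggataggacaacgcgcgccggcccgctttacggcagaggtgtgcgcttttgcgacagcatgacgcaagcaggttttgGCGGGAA
Chek2: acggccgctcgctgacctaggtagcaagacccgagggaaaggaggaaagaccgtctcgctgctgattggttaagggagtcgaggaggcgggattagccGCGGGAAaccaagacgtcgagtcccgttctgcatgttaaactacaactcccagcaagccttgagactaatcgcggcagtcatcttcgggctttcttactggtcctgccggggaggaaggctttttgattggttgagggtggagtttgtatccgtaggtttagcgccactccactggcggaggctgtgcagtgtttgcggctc
Brca1: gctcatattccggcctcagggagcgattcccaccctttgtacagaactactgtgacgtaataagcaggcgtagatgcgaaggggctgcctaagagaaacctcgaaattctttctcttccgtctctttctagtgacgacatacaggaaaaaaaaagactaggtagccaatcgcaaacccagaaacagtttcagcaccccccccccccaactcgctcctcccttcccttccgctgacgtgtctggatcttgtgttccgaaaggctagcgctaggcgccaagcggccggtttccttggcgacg
Brca2: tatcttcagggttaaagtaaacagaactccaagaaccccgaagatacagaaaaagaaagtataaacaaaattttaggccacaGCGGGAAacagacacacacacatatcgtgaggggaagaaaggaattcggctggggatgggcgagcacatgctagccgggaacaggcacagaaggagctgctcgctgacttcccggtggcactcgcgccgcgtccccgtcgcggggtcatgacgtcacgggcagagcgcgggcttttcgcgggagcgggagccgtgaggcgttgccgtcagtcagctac
The heptamer began at base 294 of the 300-base window in Chek1, at base 99 in Chek2 and at base 83 in Brca2, and was not found in the Brca1 window. It was present in 5 of the 7 promoters (Atm, Chek1, Chek2, Brca2 and Xrcc6), against 4.6% of 32851 mouse promoters. The cell cycle homology element TTTGAA was in 0 of the 7 against 17.9% of all promoters, and the cyclic AMP response element TGACGTCA was in 1 of the 7 (Brca2) against 1.79%. Any relation of these motifs to mRNA level was not tested. The Chek1 window, placed by the RefSeq start, lies inside the Chek1 gene as annotated by GENCODE (chr9:36708482-36727065).

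Values are FPKM, mapped fragments scaled by transcript length and by library total, given here in the order of replicates 1 to 3, so that levels of different genes can be set side by side. The targeted gene was checked first. In WT replicates 1 to 3 Lsm14b measured 2.77, 3.98 and 1.72 FPKM and in Lsm14b-KO replicates 1 to 3 it measured 0, 0 and 0.102 FPKM, a log2 difference of -1.85 (SE 0.25, adjusted p = 0.0038 by limma). The groups did not overlap, and the exact permutation test gave p = 0.1, the smallest value 3 against 3 libraries allow. The 9 oocyte markers, such as Gdf9 and Zp3, summed to 43170 to 54360 FPKM in WT and to 27830 to 70090 FPKM in Lsm14b-KO libraries. The 12 markers of the surrounding cumulus and granulosa cells summed to 9.405 to 13.25 FPKM in WT and to 5.79 to 9.408 FPKM in Lsm14b-KO libraries. Of these 12, 3 reached 1 FPKM in at least 1 library, and 4 (Amh, Cyp11a1, Foxl2 and Inhba) were at 0 in all 6 libraries. The red blood cell, leukocyte and theca or stroma markers in the table were all at 0. Low FPKM values fell on steps of whole fragments, which gave relative depths of 1, 1.14 and 1.03 for the WT libraries and 1.33, 1.95 and 2.17 for the Lsm14b-KO libraries. All FPKM values of a library summed to 1244182, 1171905 and 1141324 in WT and to 1029728, 564671 and 676656 in Lsm14b-KO libraries. Of the Lsm14b-KO libraries, replicate 1 was the closest to the WT libraries (Pearson r across genes 0.952 to 0.954, against 0.867 to 0.89 for replicate 2 and 0.917 to 0.929 for replicate 3). Within its group it correlated at 0.96 with replicate 3 and at 0.917 with replicate 2, and replicates 2 and 3 correlated at 0.974. Of the 6 fits with 1 library left out, the one without it called the most genes, and results that rest on it are given with and without it.

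The 8 genes ran from 119 FPKM to 0 in WT oocytes. By median FPKM the order was Chek1, Xrcc6, Brca1, Brca2, Trp63, Atr, Atm, Chek2. The ranges of Xrcc6 and Brca1, of Brca2 and Trp63, of Atr and Atm, and of Atm and Chek2 overlapped, and those of the other neighbours did not. In Lsm14b-KO oocytes Brca1 and Brca2 stood ahead of Xrcc6 by median, but the ranges of Brca1, Brca2, Xrcc6 and Trp63 overlapped from each neighbour to the next. Chek1 was first and Atr, Atm and Chek2 were last, in that order, in both groups.

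**Figure D1:**
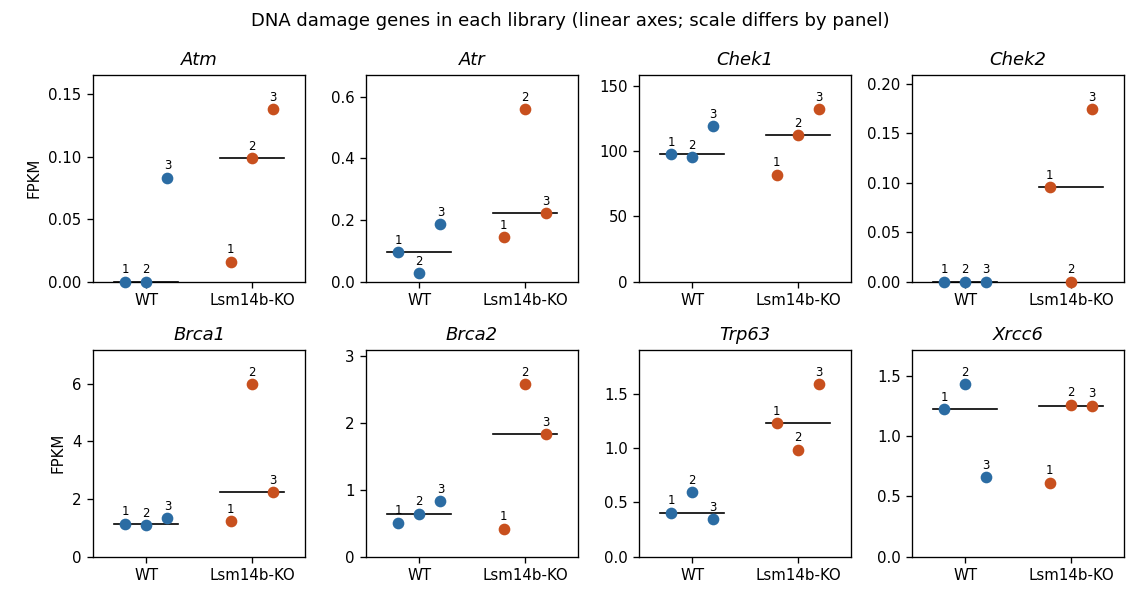
Level of each of the 8 genes in the 6 libraries, in FPKM on linear axes that differ by panel, with 1 point a library coloured by genotype and numbered by replicate, and a black line at each group's median. Chek1 lies between 81.9 and 132 FPKM in all libraries, and the Lsm14b-KO points of Trp63 (0.985 to 1.59) all lie above its WT points (0.343 to 0.595).

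The apical kinases were barely detected. WT libraries held Atm at 0, 0 and 0.0833 FPKM, and Lsm14b-KO libraries held it at 0.0161, 0.0988 and 0.138 FPKM. These values correspond to an estimated 0, 0 and 4 fragments against 1, 9 and 14 fragments over a transcript of 9787 nt. The deeper libraries held the most fragments, and the groups overlapped. Atr was at 0.0961, 0.0281 and 0.187 FPKM in WT and at 0.145, 0.559 and 0.222 FPKM in Lsm14b-KO libraries, or an estimated 3, 1 and 6 against 6, 34 and 15 fragments. Lsm14b-KO replicate 2 was the highest library and Lsm14b-KO replicate 1 lay inside the WT range. Neither gene reached 1 FPKM in any library, the level required for the test. When all genes above 0 were fitted, the log2 differences were 0.08 for Atm (adjusted p = 0.477 by limma) and 0.24 for Atr (adjusted p = 0.33) and neither passed. The added 1 FPKM shrinks differences at such levels, and no smaller addition was tried for these genes. In that fit 5.03% of 14325 genes passed.

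The effector kinases were at the opposite ends. Chek1, the kinase of the ATR branch, was at 97.9, 95.2 and 119 FPKM in WT and at 81.9, 112 and 132 FPKM in Lsm14b-KO libraries. It ranked 611th of the table by mean level, and the WT range lay inside the Lsm14b-KO range. The means were 104 ± 13.3 and 109 ± 25.3 FPKM (SD, n = 3 each), a log2 difference of 0.04 (SE 0.3, 95% confidence interval -0.66 to 0.74, adjusted p = 0.925 by limma). An estimated 1252 to 1573 fragments in WT and 1392 to 3660 in Lsm14b-KO libraries stood behind these values, so that here the spread between libraries and not the number of fragments limited the precision. The log2 difference of Chek1 depended on the scaling. It was 0.73 (adjusted p = 0.166 by limma) after scaling each library to the same total (TPM) and 0.66 (adjusted p = 0.191) with quantile normalization, and passed with neither. Chek2, the kinase of the ATM branch, was listed at 0 in all 3 WT libraries and at 0.0951, 0 and 0.174 FPKM in the Lsm14b-KO libraries, an estimated 1, 0 and 3 fragments. No fold can be given for such values. The fit without a filter gave Chek2 a log2 difference of 0.12 (adjusted p = 0.273 by limma). A value of 0 in this table need not be an absent mRNA, since 13 of 84 cytosolic ribosomal protein symbols were listed at 0 in at least 1 library.

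Brca1 and Brca2 were low and even in WT and uneven in Lsm14b-KO libraries. Brca1 was at 1.14, 1.1 and 1.34 FPKM in WT and at 1.22, 5.99 and 2.23 FPKM in Lsm14b-KO libraries. Lsm14b-KO replicates 2 and 3 lay above all WT libraries and Lsm14b-KO replicate 1 lay among them. The means were 1.19 ± 0.126 and 3.15 ± 2.52 FPKM (SD, n = 3 each), and the log2 difference of 0.75 (SE 0.39, 95% confidence interval -0.14 to 1.64) did not pass the test (adjusted p = 0.181 by limma). Brca2 showed the same layout, with 0.508, 0.64 and 0.824 FPKM in WT and 0.418, 2.58 and 1.83 FPKM in Lsm14b-KO libraries. Its Lsm14b-KO replicate 1 was the lowest of the 6 libraries. The log2 difference of Brca2 was 0.56 (SE 0.34, 95% confidence interval -0.22 to 1.33, adjusted p = 0.243 by limma), from means of 0.658 ± 0.159 and 1.61 ± 1.1 FPKM (SD, n = 3 each). The estimated fragments of Brca2 were 21, 29 and 34 in WT against 22, 203 and 160 in Lsm14b-KO libraries, and those of Brca1 were 28, 31 and 34 against 40, 289 and 120.

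The calls for both BRCA genes turned on Lsm14b-KO replicate 1. Without it the log2 difference was 1.12 for Brca1 (adjusted p = 0.032 by limma) and 0.95 for Brca2 (adjusted p = 0.0111), and both passed. Without it, however, 45.3% of all tested genes passed (18.0% in the upward direction), against 21.6% with all 6 libraries. With a correction for transcript length and GC content added, and still without that library, the values were 0.76 (adjusted p = 0.0709) for Brca1 and 0.55 (adjusted p = 0.0714) for Brca2, while 41.0% of the genes in that fit passed. Both transcripts are long, 6572 nt for Brca1 and 10724 nt for Brca2. Brca2 reached 1 FPKM only in Lsm14b-KO libraries, so its being tested rested on the group where it was higher. With no filter and all 6 libraries Brca2 gave 0.56 (adjusted p = 0.381 by limma).

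Trp63 was the member whose groups did not overlap. It was at 0.406, 0.595 and 0.343 FPKM in WT and at 1.23, 0.985 and 1.59 FPKM in Lsm14b-KO libraries. The lowest Lsm14b-KO library lay above the highest WT library, and Lsm14b-KO replicate 1 was in the middle of its group here. The means were 0.448 ± 0.131 and 1.27 ± 0.304 FPKM (SD, n = 3 each), a ratio of 2.83, and the estimated fragments were 8, 14 and 7 against 33, 39 and 69. The log2 difference of 0.64 (SE 0.2, 95% confidence interval 0.18 to 1.1) missed the threshold (adjusted p = 0.0546 by limma). It passed in 2 of 16 alternatives. These were scaling each library to the same total (TPM), with 0.98 and an adjusted p of 0.0347, and the fit without Lsm14b-KO replicate 1 (0.65, adjusted p = 0.0436). After the correction for length and GC content it was 0.45 (adjusted p = 0.151 by limma). It also missed with no filter (adjusted p = 0.0963), with quantile normalization (0.0668) and with the replicate block (0.0965). In each other fit with 1 library left out the adjusted p was 0.0643 to 0.184. Trp63 reached 1 FPKM only in Lsm14b-KO libraries, and a filter on a mean of at least 1 FPKM left it out. The fold on this scale understates the change of a gene below 1 FPKM, since 1 FPKM was added before taking logarithms.

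Xrcc6 was at 1.22, 1.43 and 0.658 FPKM in WT and at 0.612, 1.26 and 1.25 FPKM in Lsm14b-KO libraries. The groups overlapped fully, with 1 low library in each. The means were 1.1 ± 0.398 and 1.04 ± 0.37 FPKM (SD, n = 3 each), a log2 difference of -0.04 (SE 0.24, 95% confidence interval -0.59 to 0.51, adjusted p = 0.901 by limma), resting on an estimated 5 to 20 fragments a library.

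In all, 5 of the 8 genes reached the level for testing, and 0 of these 5 passed the threshold, against 21.6% of the 6398 tested genes (6.38% higher and 15.2% lower in Lsm14b-KO oocytes). At an unadjusted p under 0.05 there was 1 of the 5 (Trp63) and 2518 of all tested genes. The groups did not overlap in 1 of the 5, against 45.0% of all tested genes. The median log2 difference of the 5 was 0.56, the value of Brca2, beside -0.08 for all tested genes. Brca2 and Trp63 reached the level for testing only in Lsm14b-KO libraries (WT at most 0.824 and 0.595 FPKM). Their entry thus depended on the group where they were higher, and this median is not read as a result about the 8 genes. With TPM scaling the medians were 0.98 and 0.40, 1 of the 5 passed and so did 20.6% of all tested genes. With the correction for length and GC content the medians were 0.28 and 0.07, 0 of the 5 passed and 22.0% of the genes in that fit did. No near-identical copy of any of the 8 transcripts was found in the annotation.

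By the GENCODE annotation of GRCm38 the 8 genes lie apart, with 3 of them on chromosome 9. These are Atm (chr9:53439149-53536740, minus strand), Atr (chr9:95857597-95951781, plus strand) and Chek1 (chr9:36708482-36727065, minus strand). Chek2 (chr5:110839979-110874145) and Brca2 (chr5:150522630-150570329) lie on the plus strand of chromosome 5. Brca1 is at chr11:101488764-101551955 on the minus strand, Trp63 at chr16:25683763-25892102 and Xrcc6 at chr15:81987835-82040085, both on the plus strand. FPKM counts the exons of the whole gene, so isoforms such as those of Trp63 cannot be told apart here. Other annotated genes overlap Atr (3 genes), Brca2 (4), Trp63 (2) and Xrcc6 (Desi1, on the other strand), and since it is not given whether the libraries kept the strand, reads of such neighbours could enter these values.

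**Figure D2:**
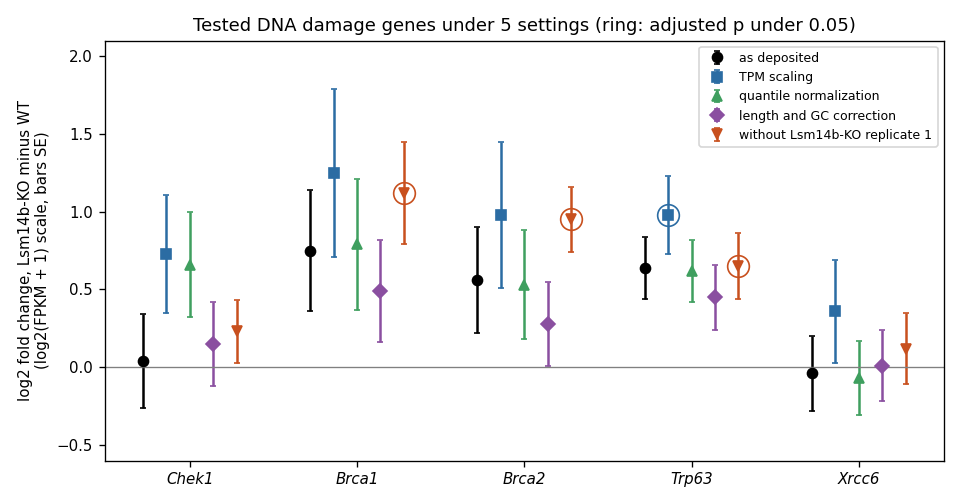
Log2 difference, Lsm14b-KO minus WT, with SE bars for each tested gene in 5 settings (FPKM as deposited, TPM scaling, quantile normalization, length and GC correction, and without Lsm14b-KO replicate 1), with a ring where the adjusted p is under 0.05. Brca1 and Brca2 carry a ring only without Lsm14b-KO replicate 1, Trp63 carries one there and with TPM scaling, and Chek1 and Xrcc6 carry none.

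The size of the difference went with transcript length over the whole table. The median log2 difference was -0.62 for the 948 tested genes under 1000 nt, -0.32 for 1000 to 2000 nt, 0.12 for 2000 to 4000 nt, 0.28 for 4000 to 8000 nt and 0.36 for the 170 genes of 8000 nt or more. The 5 tested members had a median length of 5366 nt against 2258 nt for all tested genes, and Brca1, Brca2 and Trp63 fall in the longer classes. After the correction the class medians lay between 0.02 and 0.1. The part of length in the differences of single members was not tested beyond the corrected values given beside them.

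**Figure D3:**
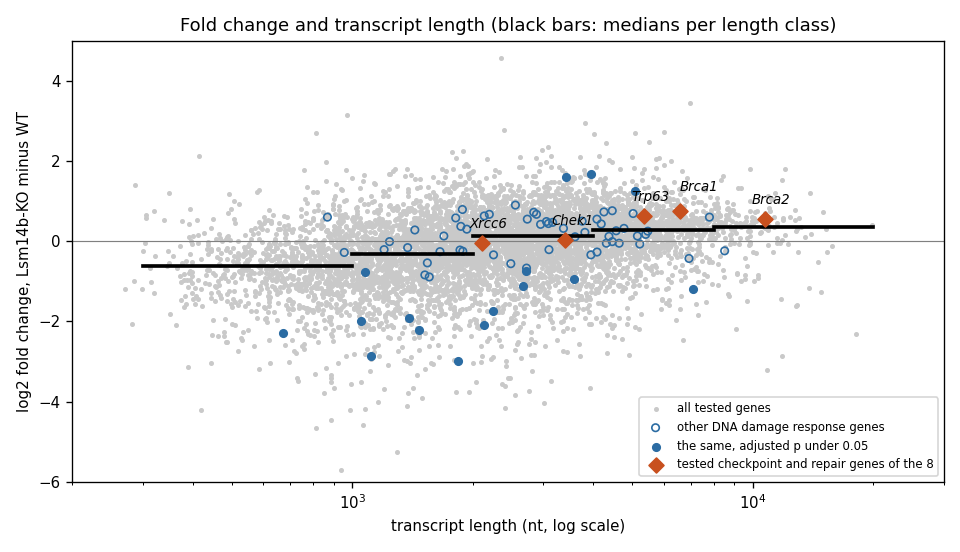
Log2 difference, Lsm14b-KO minus WT, against transcript length in nt on a log axis for the tested genes, with list genes in blue, the tested members as orange diamonds and the median of each length class as a black bar. The class medians run from -0.62 under 1000 nt to 0.36 at 8000 nt or more, and the members run from 2114 nt (Xrcc6) to 10724 nt (Brca2).

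The wider pathway was taken as 9 lists holding 142 further genes of the table, of which 71 reached the level for testing. Of these 71, 3 were higher and 13 lower in Lsm14b-KO oocytes, 22.5% in all against 21.6% of all tested genes. Their median log2 difference was 0.11, beside -0.08 for all tested genes. Some list genes reached the level for testing only in Lsm14b-KO libraries (such as Wee1, Palb2, Exo1 and Gtf2h1) or only in WT libraries (such as Ercc3 and Gtf2h3). Their entry depended on the group where they were higher, and this median is not read as a result about the pathway. The counts per list given below stand beside 6.38% higher and 15.2% lower among all tested genes. A list held only 3 to 15 tested genes, so these counts are not read as results about a list. The split depended on the scaling. It was 7 higher and 8 lower with TPM, 5 and 12 with the correction for length and GC content, and 14 and 17 without Lsm14b-KO replicate 1. All 3 higher genes had transcripts of 2000 nt or more, and 7 of the 13 lower genes had transcripts under 2000 nt. Among the 6318 tested genes with a length, 948 were under 1000 nt and 1835 were of 1000 to 2000 nt. The tested list genes had a median length of 2839 nt, against 2258 nt for all tested genes. Whether these counts follow transcript length was not tested. Tipin, H2afx, Fam175a and Ube2t (lower) and Wee1 and Msh3 (higher) kept their calls in all 17 alternatives.

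**Figure D4:**
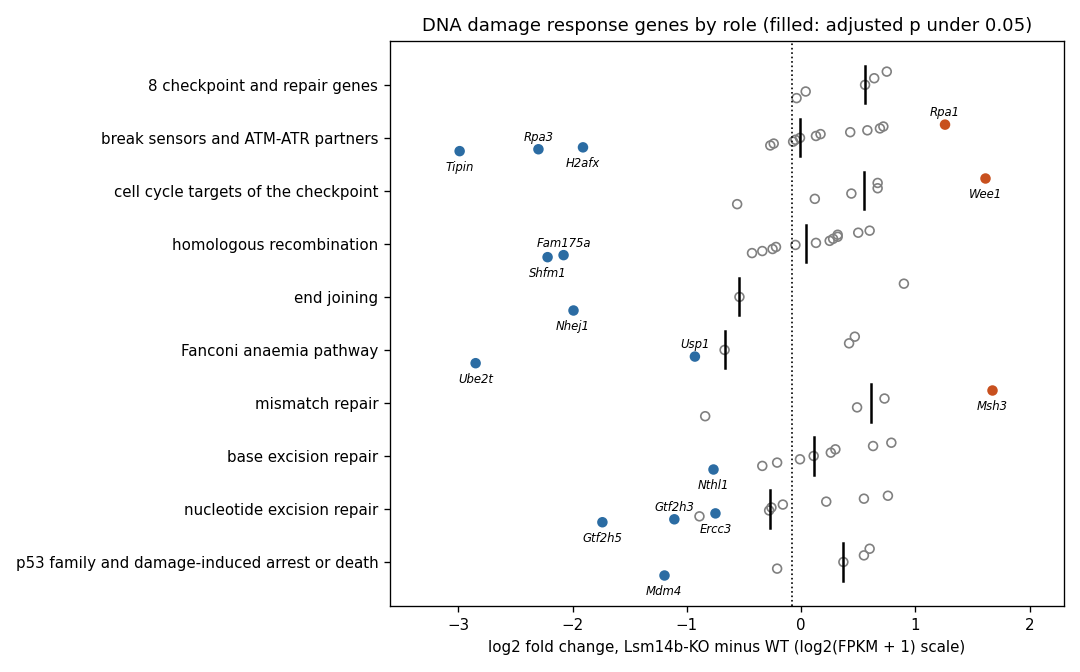
Log2 difference, Lsm14b-KO minus WT, of each tested gene of the members and the 9 lists, 1 row a list, with filled points where the adjusted p is under 0.05, a black bar at each list's median and a dotted line at the median of all tested genes (-0.08). Among the list genes 13 filled points lie below 0 and 3 above it, and no member is filled.

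Around ATM and ATR, 15 sensor and partner genes were tested, of which 1 rose and 3 fell. Tipin, whose product protects stalled forks and helps ATR reach CHK1, was among the most abundant mRNAs of the lists and fell most, from 908, 905 and 843 FPKM in WT to 231, 70.6 and 82.7 FPKM in Lsm14b-KO libraries. Its log2 difference was -2.99 (SE 0.46, adjusted p = 0.00557 by limma), with no overlap of the groups. The subunits of RPA, the complex that coats single-stranded DNA, went apart. Rpa3 fell from 158 ± 10.5 to 37.7 ± 29.0 FPKM (SD, n = 3 each; log2 difference -2.3, adjusted p = 0.0177), a call lost when WT replicate 1, 2 or 3 or Lsm14b-KO replicate 3 was left out (adjusted p = 0.0718 to 0.088). Rpa1 rose from 1.74 ± 0.623 to 5.54 ± 1.44 FPKM (SD, n = 3 each; log2 difference 1.26, adjusted p = 0.0146), a call lost without WT replicate 1 (adjusted p = 0.0795) or WT replicate 3 (adjusted p = 0.0721). Rpa2 did not pass (0.58, adjusted p = 0.235), and without Lsm14b-KO replicate 1 it did (0.9, adjusted p = 0.0223). The transcripts of Rpa3 and Rpa1 differ in length, 670 and 5077 nt. After the correction for length and GC content both differences were smaller, -1.38 for Rpa3 (adjusted p = 0.00767 by limma) and 1.01 for Rpa1 (adjusted p = 0.022). H2afx, the histone variant that ATM marks around a break, fell from 6.87 ± 2.44 to 1.08 ± 0.571 FPKM (SD, n = 3 each; log2 difference -1.91, adjusted p = 0.00693 by limma), and 1 near-identical copy may share its reads. Atrip, which brings ATR to RPA, was at 0, 0 and 0.211 FPKM in WT and at 0.0819, 0.0559 and 0.0501 FPKM in Lsm14b-KO libraries. Mre11a and Nbn, which recruit ATM to breaks, reached at most 0.517 and 0.752 FPKM, whereas Rad50 of the same complex was tested and gave 0.13 (adjusted p = 0.631 by limma). Rpa1 and the partner genes named here and in the next paragraphs stand outside the naming rule and were chosen after their values were seen.

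Of the 6 tested cell cycle targets of the checkpoint 1 rose and none fell. Wee1, the kinase that holds CDK1 inactive, rose from 0.797, 0.699 and 0.232 FPKM in WT to 3.66, 4.01 and 3.56 FPKM in Lsm14b-KO libraries (log2 difference 1.61, SE 0.21, adjusted p = 0.00328 by limma). All 3 Lsm14b-KO libraries, replicate 1 included, lay close together. Wee1 reached 1 FPKM only in Lsm14b-KO libraries, so its being tested rested on the group where it was higher. It passed in all 17 alternatives, the fit with no filter included. Its oocyte counterpart Wee2 was at 18.4, 20.8 and 20.7 FPKM in WT and at 17.6, 53.7 and 35.3 FPKM in Lsm14b-KO libraries and did not pass (0.67, adjusted p = 0.239) except, among the fits with 1 library left out, without Lsm14b-KO replicate 1 (1.09, adjusted p = 0.00976). Ccnb1, the cyclin partner of CDK1 and the most abundant of the list, was at 374 ± 80.3 and 252 ± 37.6 FPKM (SD, n = 3 each) without passing (-0.56, adjusted p = 0.2), and its difference changed sign with TPM scaling (0.134) and quantile normalization (0.237). It has 4 near-identical copies that may share its reads.

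Of the 14 tested genes of homologous recombination 2 fell and none rose. Fam175a (Abraxas), which binds BRCA1 in a complex at ubiquitin marks, fell from 29.4, 28.5 and 32.1 FPKM to 7.79, 6.54 and 4.97 FPKM (log2 difference -2.08, SE 0.25, adjusted p = 0.00237 by limma). Shfm1 (Dss1), the small protein that binds BRCA2, fell from 476 ± 46.2 to 126 ± 105 FPKM (SD, n = 3 each; log2 difference -2.22, adjusted p = 0.0259), but among the fits with 1 library left out it passed only without Lsm14b-KO replicate 1 (-2.86, adjusted p = 0.000383), and in the other 5 the adjusted p was 0.0528 to 0.112. With no filter it was 0.0674. Fam175a and Shfm1 were named because they passed, and 12 of the 14 tested genes of the list did not. Among those were Brcc3 (-0.05, adjusted p = 0.879 by limma), Babam1 (0.28, adjusted p = 0.338) and Bre (-0.25, adjusted p = 0.581). Brca1 and Brca2 themselves did not pass either. Bard1, which joins BRCA1 in its ubiquitin ligase, was at 0.097, 0.213 and 0.142 FPKM in WT and at 0.293, 0.374 and 0.47 FPKM in Lsm14b-KO libraries, below the level for testing although its groups did not overlap. Palb2, which links BRCA1 to BRCA2, gave 0.5 (adjusted p = 0.157 by limma, and 0.0441 without Lsm14b-KO replicate 1).

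Of the 3 tested end-joining genes 1 fell. Nhej1 (XLF), which bridges the ends that KU70 and KU80 hold, fell from 260, 243 and 250 FPKM to 103, 36.9 and 62.4 FPKM (log2 difference -2.0, SE 0.4, adjusted p = 0.0137 by limma), a call lost when WT replicate 1, 2 or 3 or Lsm14b-KO replicate 3 was left out (adjusted p = 0.0637 to 0.0728). Xrcc5, which encodes KU80, the partner of the Xrcc6 product, was at 6.56, 5.45 and 9.96 FPKM in WT and at 19.2, 9.71 and 15.1 FPKM in Lsm14b-KO libraries. It did not pass (0.9, adjusted p = 0.0813 by limma) except with TPM scaling among the values given here (1.53, adjusted p = 0.0161). Prkdc, the kinase that the KU proteins recruit, reached at most 0.0885 FPKM. Every WT value of Xrcc5 lay above every WT value of Xrcc6 (0.658 to 1.43 FPKM).

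In the Fanconi anaemia pathway, which clears DNA crosslinks, 2 of 5 tested genes fell. Ube2t, the ubiquitin-conjugating enzyme of the pathway, fell from 561, 556 and 564 FPKM to 121, 58.7 and 63.3 FPKM (log2 difference -2.85, SE 0.35, adjusted p = 0.00256 by limma). Usp1, which removes that ubiquitin, fell from 5.32 ± 1.34 to 2.26 ± 0.0762 FPKM (SD, n = 3 each; log2 difference -0.93, adjusted p = 0.0243), a call lost with TPM scaling (-0.4, adjusted p = 0.297), with no filter (adjusted p = 0.0586) and without WT replicate 1 or 2 or Lsm14b-KO replicate 2 or 3 (adjusted p = 0.0546 to 0.1). In mismatch repair 1 of 4 tested genes rose. Msh3, a mismatch recognition subunit, rose from 2.18, 2.39 and 2.05 FPKM to 6.77, 11.0 and 10.5 FPKM (log2 difference 1.67, SE 0.24, adjusted p = 0.00424 by limma), although it has 1 near-identical copy that may share its reads. Pcna, the sliding clamp, did not pass (-0.84, adjusted p = 0.25) except, among the fits with 1 library left out, without Lsm14b-KO replicate 1 (-1.44, adjusted p = 0.00327). Its value in that library, 116 FPKM, was above WT, and those of the other 2 Lsm14b-KO libraries, 26.0 and 39.6 FPKM, were below it. Usp1 and Pcna also have 1 near-identical copy each.

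In base excision repair 1 of 9 tested genes fell, the glycosylase Nthl1, from 2.75 ± 0.564 to 1.18 ± 0.0793 FPKM (SD, n = 3 each; log2 difference -0.77, adjusted p = 0.0299), and after the correction for length and GC content it no longer passed (-0.39, adjusted p = 0.172), nor with TPM scaling (-0.33, adjusted p = 0.359) or no filter (adjusted p = 0.0676). Among the fits with 1 library left out it passed only without Lsm14b-KO replicate 1 (adjusted p = 0.0248, and 0.0649 to 0.108 in the others). Neil3, the most abundant of that list, did not pass (-0.34, adjusted p = 0.358), and its sign changed with TPM scaling (0.347) and quantile normalization (0.292). In nucleotide excision repair 3 of 10 tested genes fell, Gtf2h5, Gtf2h3 and Ercc3, which encode subunits of TFIIH, the complex that opens the helix. The other tested Gtf2h genes did not pass, Gtf2h1 at 0.55 (adjusted p = 0.203, and 0.82 with 0.0383 without Lsm14b-KO replicate 1) and Gtf2h2 at -0.26 (adjusted p = 0.461). Gtf2h5 went from 500 ± 33.5 to 166 ± 92.2 FPKM (SD, n = 3 each; log2 difference -1.74, adjusted p = 0.0271) and Ercc3 from 2.05 ± 0.31 to 0.805 ± 0.143 FPKM (-0.75, adjusted p = 0.0286). Gtf2h3 was at 0.943, 1.83 and 2.34 FPKM in WT and listed at 0, 0.161 and 0.578 FPKM in Lsm14b-KO libraries (-1.11, adjusted p = 0.0284). All 3 calls were lost without WT replicate 2 or 3 or Lsm14b-KO replicate 3, those of Gtf2h5 and Ercc3 also without WT replicate 1, and those of Gtf2h3 and Ercc3 also without Lsm14b-KO replicate 2, with adjusted p-values from 0.0609 to 0.113. With TPM scaling Ercc3 (-0.37, adjusted p = 0.242) and Gtf2h3 (-0.84, adjusted p = 0.087) no longer passed and Gtf2h5 was at -1.05 (adjusted p = 0.0298), and with the replicate block Ercc3 missed the threshold (adjusted p = 0.0508). Ercc3, Gtf2h3 and Gtf2h5 also missed it with no filter (adjusted p = 0.063 to 0.0695), as Gtf2h3 did with a pseudocount of 0.01 (adjusted p = 0.0862).

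Of the 5 tested genes of the p53 family and of arrest or death after damage 1 fell. Mdm4, an inhibitor of p53, was abundant in WT at 566, 548 and 503 FPKM and fell to 282, 212 and 213 FPKM (log2 difference -1.2, SE 0.28, adjusted p = 0.0241 by limma). The call was lost with TPM scaling (-0.51, adjusted p = 0.103), with quantile normalization (-0.41, adjusted p = 0.218), with the replicate block (adjusted p = 0.0564) and when WT replicate 1, 2 or 3 or Lsm14b-KO replicate 3 was left out (adjusted p = 0.0784 to 0.109). Trp53 was at 0.835, 1.31 and 0.968 FPKM in WT and at 1.88, 1.46 and 1.53 FPKM in Lsm14b-KO libraries, with no overlap of the groups, but did not pass (0.37, adjusted p = 0.187). Trp73, the remaining family member, was at 0.12, 0.105 and 0.233 FPKM in WT and at 0.0451, 0 and 0 FPKM in Lsm14b-KO libraries, too low to test. Of the genes through which p63 and p53 act, Bbc3 (PUMA) and the arrest gene Cdkn1a (p21) were listed at 0 in all 6 libraries, and Pmaip1 (NOXA) was listed at 0 in all but Lsm14b-KO replicate 2 (0.108 FPKM). Bax, a pore-forming effector of death, was at 0.844, 1.09 and 1.61 FPKM in WT and at 2.18, 2.81 and 1.9 FPKM in Lsm14b-KO libraries. It did not pass (0.6, adjusted p = 0.0813 by limma). It did pass after the correction for length and GC content (1.11, adjusted p = 0.0169) and with TPM scaling (1.06, adjusted p = 0.0486).

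The list gene whose values moved most like those of each member over the 6 libraries was found by the root mean square difference of log2 values, each centred on its own mean, among 75 other tested genes of the lists and members. The nearest were Msh6 for Brca1 (0.1), Wee2 for Brca2 (0.11), Rad52 for Chek1 (0.1), Hus1 for Xrcc6 (0.14) and Trp53 for Trp63 (0.19). Rad52 (0.307 to 1.13 FPKM) and Hus1 (1.08 to 2.34 FPKM) were low, and the added 1 FPKM shrinks their movements. Rad52 thus lay far below Chek1 (81.9 to 132 FPKM) in level. Msh6, with 0.818, 0.552 and 0.734 FPKM in WT and 0.806, 3.78 and 1.57 FPKM in Lsm14b-KO libraries, had its peak in Lsm14b-KO replicate 2 as Brca1 did, and passed only without Lsm14b-KO replicate 1 (1.04, adjusted p = 0.0258). The points share their libraries, depths and length effects, and the likeness is a description of these 6 libraries.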

How the data were processed

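RNA-Seq libraries of 3 WT and 3 Lsm14b-KO groups of 20 FGOs were analysed, grouped by the titles and genotype labels. Per the labels, the authors amplified RNA by Smart-seq2, sequenced 150 bp pairs, aligned them to mm10 with tophat2 2.0.13 and computed FPKM with cufflinks 2.2.1. The annotation and strandedness are not given in the sources used here, and the labels name 2 different library kits. In the deposited table every library has its own FPKM column. Its columns of the authors' own comparison (log2 fold change, p-values and q-values of cuffdiff) were not used. FPKM is relative to the library total, so a change in abundant or short transcripts moves all other values. Spreadsheet dates replaced 27 symbols, which stayed in the fit unnamed.

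Values were taken as log2(FPKM + 1). The 6398 genes that reached 1 FPKM in any library were fitted with limma 3.58.1 in R 4.3.3 (genotype only, eBayes with intensity trend, two-sided, Benjamini-Hochberg over all tested genes, threshold 0.05), after the code had been tested on simulated data. Lsm14b was also compared by the exact permutation test. Fragments were estimated from whole steps in low FPKM values or from annotated length, and counting tests were not applied to them. Length, GC content (found for 98.7% of tested genes), coordinates and copies (blastn 2.17.0, at least 95% identity over 200 nt) came from GENCODE vM21 on GRCm38, the assembly of mm10. Named genes were the members and Lsm14b, from each list the up to 3 largest changes past the threshold and the highest mean FPKM, and each member's nearest gene. The members and the lists were chosen with earlier results of these data known. Alternatives were other pseudocounts (0.1, 0.01), filters, TPM, quantile and length and GC scaling, no intensity trend, a replicate block and leaving out each library.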

Additional observations from a re-analysis of the deposited data

How the results depend on the processing

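The number of tested genes past the threshold was 1383 in the fit reported and 720 with no filter, and leaving out 1 library gave from 315 (without Lsm14b-KO replicate 3) to 2898 (without Lsm14b-KO replicate 1). The split of higher and lower genes was 408 and 975 with FPKM as deposited, 833 and 486 with TPM scaling, 540 and 735 with quantile normalization and 573 and 819 with the correction for length and GC content. Of the 5 tested members, 0 passed in the fit reported, 1 passed with TPM scaling (Trp63), and leaving out 1 library gave 0 to 3, the 3 being Brca1, Brca2 and Trp63 without Lsm14b-KO replicate 1. The number of list genes past the threshold was 16 in the fit reported and 10 with no filter, and leaving out 1 library gave 7 (without each WT library and without Lsm14b-KO replicate 3) to 31 (without Lsm14b-KO replicate 1). With the length and GC correction and without Lsm14b-KO replicate 1, a pair of choices added after seeing the data, 2588 tested genes, 0 members and 27 list genes passed. The fit with no filter adjusted over more genes (14325), and the fits with 1 library left out held fewer libraries. The cause of these shifts was not tested.

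Among genes that did not pass, some log2 differences changed sign. With TPM scaling these were Xrcc6 (0.359), Hus1 (0.423), Ccnb1 (0.134) and Neil3 (0.347), and with quantile normalization Ccnb1 (0.237) and Neil3 (0.292). Xrcc6 was also at 0.005 with the length and GC correction, with or without the replicate block, and at 0.149 with that correction and without Lsm14b-KO replicate 1. Leaving out 1 library gave -0.112 to 0.23 for Chek1, -0.206 to 0.117 for Xrcc6, -0.035 to 0.269 for Rad52 and -0.225 to 0.115 for Hus1. Lsm14b passed in all 17 alternatives. Over 29 single genes and these alternatives, 490 values were compared, of which 405 kept direction and side of the threshold, 59 lost the call, 9 gained it and 17 changed sign.

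The replicate numbers were not taken as pairs, since deviations from the group means correlated at 0.19, -0.128 and 0.018 between same-numbered libraries, and WT replicates 2 and 3 correlated best with another number. With the replicate block 1244 tested genes, 0 members and 14 list genes passed, and with the block and the length and GC correction 1298, 0 and 16. Depth limits Chek2, Atm, Xrcc6 and Atr most, with at most 3, 14, 20 and 34 estimated fragments in any library.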
